A study of Mus musculus with 27 samples.

Results

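Wild-type Mist1+ gastric organoids were compared between passage 10 and passage 5. The members were the 3 libraries titled Mist1+ organoids_P10 and the 3 titled Mist1+ organoids_P5, 6 of the 27 samples of the series, and they were taken by title alone. The series follows mouse gastric organoids with and without Gpx4, the selenoenzyme that reduces lipid hydroperoxides in membranes, over passages 5, 10 and 15, and its title names oxidative stress. The wild-type organoids, with the genotype label WT, came from Mist1CreERT2;RFPLSL adult mice. In these mice Cre recombinase is placed under the Mist1 gene and switches on a red fluorescent protein, and RFP+ cells of the stomach were sorted by FACS, embedded in Matrigel and expanded in proliferating medium. The knockout organoids, labelled Gpx4 KO, came from Gpx4F/F;Mist1Cre/ERT2;RFPLSL mice, so the wild-type and knockout groups share the Cre and reporter alleles. Of the knockout libraries, 3 at passage 10 and 3 at passage 5 serve below as a comparison. The labels do not give the number of mice or organoid lines, the inducing drug, or whether the 3 libraries of a passage are separate cultures. The p-values therefore measure only the spread between libraries of a group, which may be technical. That spread was estimated over 18 libraries, which also include those titled Mist1- organoids at passage 5 and the knockout libraries of passage 15.

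The lining of the stomach corpus is renewed from dividing cells in the isthmus of each gland. Cells that move up become pit cells, which secrete gastrokines, the trefoil factor Tff1 and the gel-forming mucin Muc5ac, and cells that move down become mucous neck cells and then chief cells, whose secretory programme uses the transcription factor Mist1, encoded by Bhlha15. After injury, and in culture, gastric epithelium can take on a metaplastic or regenerative state with neck cell, Wnt-responsive and YAP-responsive genes. Passaging breaks organoids into fragments that must regrow, and a passage number counts those cycles.

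By passage 10 the organoids carried more mRNA of pit cell products, mucins and epithelial cytokines than at passage 5, and less of Wnt target genes, of genes of the regenerative state, of mucous neck cell markers and of antioxidant, hypoxia and p53 target genes. Most of the changes were small. Of 15115 genes tested, 2765 (18.3%) were called in edgeR's quasi-likelihood test with Benjamini-Hochberg adjustment at 0.05, 1384 higher at passage 10 (9.16%) and 1381 lower (9.14%). The median size of a called change was 0.22 on the log2 scale, and 2305 of the 2765 changed by less than 1.5-fold. A change of 2-fold or more was called for 202 genes (1.34%), 85 higher (0.562%) and 117 lower (0.774%), and 28 genes changed by 4-fold or more. The 3 libraries of each passage did not overlap in 94.36% of the called genes, against 30.8% of all genes tested. In bulk RNA, fewer cells of a type and less RNA per cell cannot be told apart, and this holds for every group below.

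**Figure D1:**
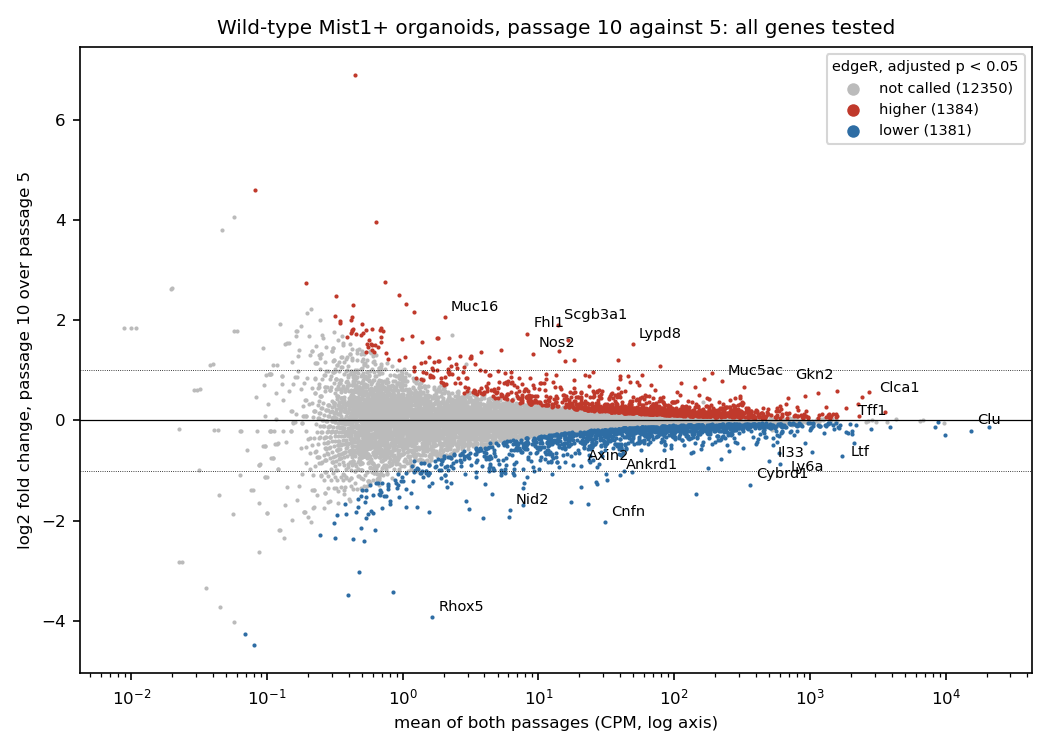
Each point is 1 of 15115 genes, with the mean of passages 5 and 10 as counts-per-million values (CPM, log axis) against the log2 fold change of passage 10 over passage 5. Red points (1384) were higher and blue points (1381) lower at an adjusted p under 0.05; abundant genes such as Clca1 and Ltf moved by less than the dotted 2-fold lines.

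The 6 libraries held 14728099 to 15412448 counts at passage 5 and 15857340 to 19608956 at passage 10, so depth differed with passage, and its part in the results was not tested. Values below are counts-per-million values of the scaled library total (CPM), 1 for each library. Mitochondrial transcripts took 4.85 to 4.92% of counts at passage 5 and 4.69 to 4.74% at passage 10. Replicates were close: the biological coefficient of variation was 2.32% at passage 5 and 2.29% at passage 10, against 21.1% among the 3 wild-type libraries of passage 15. Those 3 libraries were left out of the estimate of spread. With them in it, 738 of 15115 genes were called, 309 higher and 429 lower. These totals are the background for the list counts given below for the fit with all 21 libraries. Epithelial markers were present, with Epcam at 433 CPM at both passages and the gastric claudin gene Cldn18 at 1496 and 1632 CPM. Of 10 fibroblast, 7 endothelial and 6 erythrocyte markers, all were under 1 CPM on average at both passages, with Col3a1, Pdgfra, Kdr and Hba-a1 at 0 counts. Of 10 immune markers, 8 were under 1 CPM, and the macrophage gene Cd68 fell from 11.2 to 6.37 CPM (log2 -0.82 ± 0.12, adjusted p = 1.47e-08). The summed level of the 10 immune markers was 13.8 to 15.5 CPM at passage 5 and 7.85 to 8.74 CPM at passage 10, and the part of such cells in other results was not tested.

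Of the 2 genes that define the study's design, Gpx4 was slightly lower at passage 10 and Bhlha15 was not called. Gpx4 measured 132, 124 and 134 CPM at passage 5, then 112, 125 and 116 CPM at passage 10. Its level was lower at passage 10 (log2 -0.15 ± 0.038 SE, adjusted p = 0.00169), but the libraries of both passages overlapped. It was no longer called in edgeR with all 21 organoid libraries in the fit (adjusted p = 0.734). The same held in limma on log2(FPKM + 1) and on log2(FPKM + 0.1) (adjusted p = 0.0673 and 0.0679). Bhlha15, which encodes Mist1, measured 5.02, 6.21 and 5.28 CPM at passage 5, then 7.13, 6.59 and 6.81 CPM at passage 10. The passage 10 libraries were the higher ones without overlap, and the difference did not pass the test (log2 0.32 ± 0.14, adjusted p = 0.114). Libraries labelled Gpx4 KO held 99.5 ± 1.7 CPM of Gpx4 (SD, n = 3) at passage 5 and 95.4 ± 6.48 CPM at passage 10. These counts cover all exons of the gene and the labels do not give the deleted part, so they do not check the knockout label, and "knockout" below means the libraries labelled so.

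Most pit cell markers were higher at passage 10. Of 14 pit cell markers tested, 9 rose and 3 fell, with a median log2 change of 0.29 against 0.00 over all genes tested, and their summed level went from 8972 to 9155 CPM at passage 5 to 11061 to 11311 CPM at passage 10. Gkn2, a secreted gastrokine (ENSMUSG00000030049, chromosome 6, 87373357 to 87379497 on GRCm38), measured 1274, 1229 and 1272 CPM at passage 5, then 1933, 1835 and 1876 CPM at passage 10. Its rise of 0.58 ± 0.03 on the log2 scale had an adjusted p of 1.45e-10. Its neighbour Gkn1 measured 961, 915 and 924 CPM and then 1400, 1357 and 1342 CPM (log2 0.55 ± 0.019, adjusted p = 1.26e-50). Both gastrokines had every passage 10 library well above every passage 5 library.

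Tff1, the trefoil peptide that is packed with mucin in pit cells, measured 1940, 2043 and 2120 CPM at passage 5, then 2869, 2732 and 2874 CPM at passage 10 (log2 0.47 ± 0.04, adjusted p = 9.31e-07). Muc5ac, the gel-forming mucin of the gastric surface (chromosome 7, 141788972 to 141819231 on GRCm38), measured 165, 164 and 163 CPM and then 279, 283 and 284 CPM. Its rise of 0.78 ± 0.029 had an adjusted p of 7.75e-53, and libraries within a passage differed by a few CPM. The calpain genes Capn8 and Capn9, whose proteases are found in gastric surface mucous cells, rose from lower levels: Capn9 went from 1.56, 2.54 and 1.58 CPM to 5.28, 3.78 and 4.38 CPM (log2 1.25 ± 0.24, adjusted p = 1.08e-05). Vsig1, a junctional adhesion protein of gastric epithelium, rose from 542 to 660 CPM (log2 0.28 ± 0.019), and the sulfotransferase gene Sult1c2 rose from 867 to 988 CPM (log2 0.19 ± 0.018). The gain did not extend to every marker: Ctse, which encodes cathepsin E, fell from 371 to 329 CPM (log2 -0.17 ± 0.026), Gsta1 fell from 679 to 622 CPM and the transcription factor gene Foxq1 from 151 to 141 CPM. Psca was at 248 and 259 CPM (log2 0.06, adjusted p = 0.17) and Anxa10 at 1546 and 1501 CPM (log2 -0.04, adjusted p = 0.0537), and neither passed the test. Tff1 lost its call with all 21 organoid libraries in the fit, where 7 of the 14 pit cell markers rose and 1 fell.

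Mucins beyond Muc5ac rose as well. Of 12 mucin genes, 9 were tested, 7 rose and none fell (median log2 0.30); Muc2 and Muc20 did not pass the test, and 3 were too low to test. Among the membrane-bound mucins, Muc1 rose from 1162 to 1273 CPM (log2 0.13 ± 0.016) and Muc4 measured 217, 207 and 223 CPM at passage 5, then 267, 255 and 255 CPM at passage 10 (log2 0.26 ± 0.046, adjusted p = 0.000769). Muc16, another membrane-bound mucin, stood at 0.814, 0.847 and 0.686 CPM and then 3.78, 2.61 and 3.48 CPM (log2 2.07 ± 0.33, adjusted p = 5.04e-08). Muc13, better known from the intestine, went from 1.56, 2.12 and 2.61 CPM to 5.28, 5.35 and 5.54 CPM (log2 1.36 ± 0.2, adjusted p = 7e-09). The gel-forming Muc5b measured 14.2, 13 and 12.5 CPM at passage 5, then 23.3, 22.3 and 24.3 CPM at passage 10 (log2 0.82 ± 0.078, adjusted p = 6.59e-19). For each of these mucins the libraries of the passages did not overlap. Muc13 shares exonic positions with another annotated gene and the strand setting of the counting is not given in the sources used here, so its reads may be shared.

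Clca1, a secreted protein of mucous cells that acts on the mucus gel, had the largest rise in CPM among named protein-coding genes with separate passages: 2188, 2198 and 2183 CPM at passage 5, then 3247, 3239 and 3279 CPM at passage 10 (log2 0.57 ± 0.015, adjusted p = 6.14e-88). Of 15 tested genes for mucin glycosylation and granule formation, 8 rose and 1 fell (median log2 0.11). Galnt7 and C1galt1, which start and extend O-glycans, rose from 563 to 658 CPM and from 343 to 390 CPM, and Creb3l1, a transcription factor gene of secretory cells, rose from 56.8 to 73.7 CPM (log2 0.37 ± 0.046, adjusted p = 3.75e-12). Gcnt1, which branches O-glycans, fell from 110 to 100 CPM. Of 17 genes of the unfolded protein response, 10 rose and none fell, by little: the chaperone gene Hspa5 went from 1317 to 1412 CPM (log2 0.10 ± 0.015, adjusted p = 1.08e-08) and Hsp90b1 from 1388 to 1476 CPM (log2 0.09 ± 0.015), while Xbp1 stood at 295 CPM at both passages. Rrbp1, a ribosome-binding protein of the rough endoplasmic reticulum, rose from 1179 to 1425 CPM (log2 0.27 ± 0.016, adjusted p = 1.21e-37). These small changes depended on the estimate of spread: with all 21 libraries in the fit, 1 of the 15 mucus genes was called, and 0 of the 17 unfolded protein response genes in edgeR, where 2 had an unadjusted p under 0.05; DESeq2, on the 18 libraries, called 10 of the 17.

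**Figure D2:**
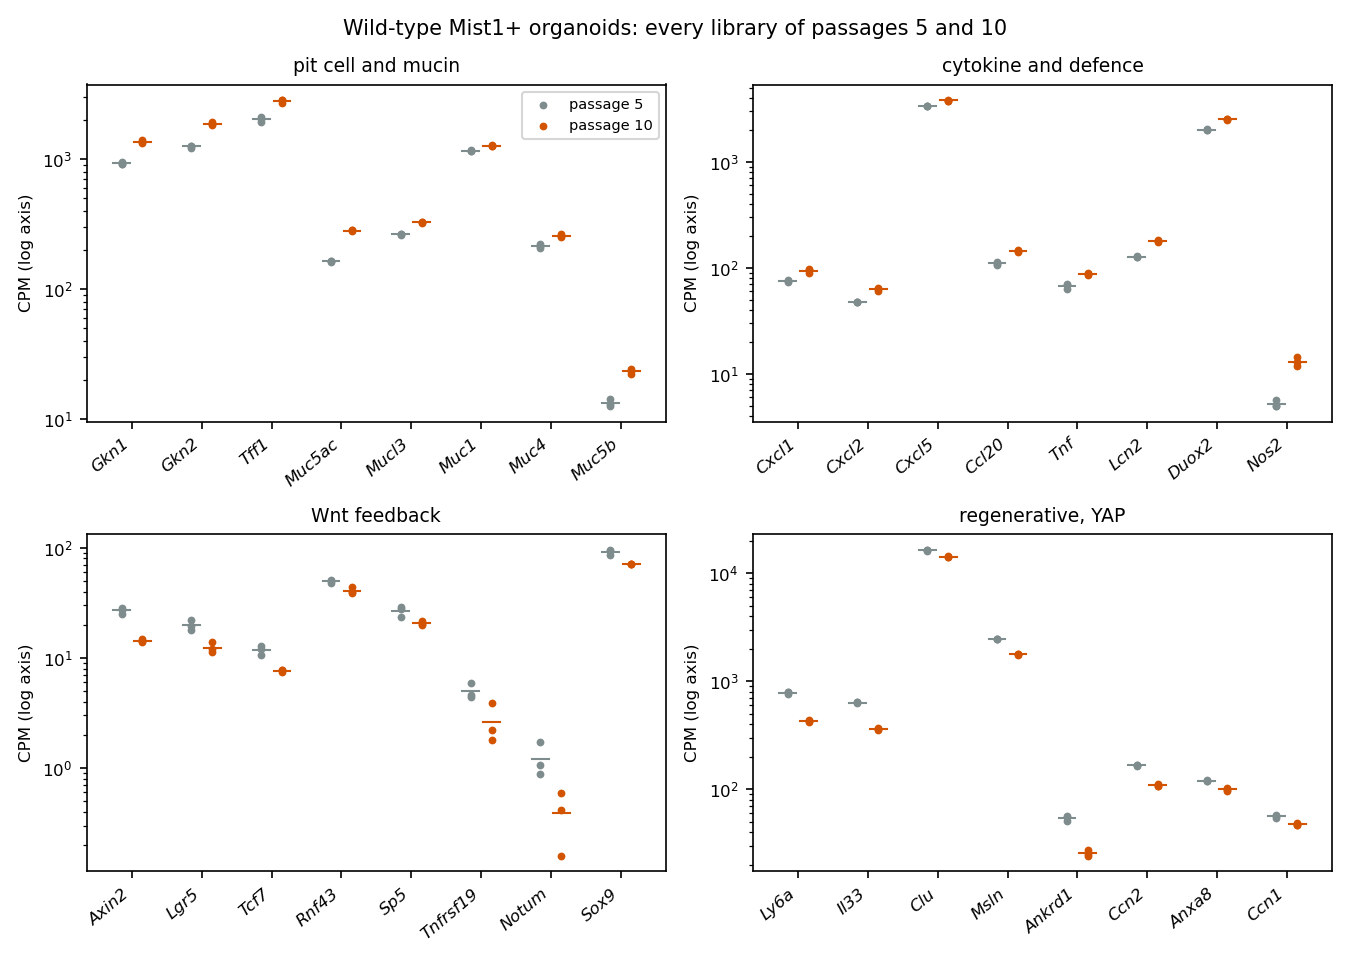
Every library of both passages (grey, passage 5; orange, passage 10; short lines, means of 3) in CPM on a log axis, for 8 genes in each of 4 groups. The pit cell, mucin, cytokine and defence genes drawn stand higher at passage 10. Muc5b went from 14.2 to 23.3 CPM in the first library of each passage. The Wnt feedback and regenerative genes drawn stand lower. The genes are a selection: other members of these lists, such as Ctse, Ltf and Znrf3, moved the other way or were not called and are not drawn.

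Chemokine, cytokine and NF-kB genes formed the next group. NF-kB is a family of dimeric transcription factors held in the cytoplasm by inhibitors and released by receptor signals, and its targets include neutrophil-attracting chemokines and its own inhibitors. Of 19 genes tested, 12 rose and 2 fell (median log2 0.30). The promoters of 2 of these chemokine genes are shown because each holds the 9 letters GGAATTTCC, in capitals, a form of the NF-kB motif, 70 bases before the start for Cxcl1 and 96 bases before it for Cxcl2. Both come from RefSeq on GRCm38.p6 and run 5′ to 3′ on the plus strand, at chr5:90890995-90891294 for Cxcl1 and chr5:90903649-90903948 for Cxcl2:
Cxcl1: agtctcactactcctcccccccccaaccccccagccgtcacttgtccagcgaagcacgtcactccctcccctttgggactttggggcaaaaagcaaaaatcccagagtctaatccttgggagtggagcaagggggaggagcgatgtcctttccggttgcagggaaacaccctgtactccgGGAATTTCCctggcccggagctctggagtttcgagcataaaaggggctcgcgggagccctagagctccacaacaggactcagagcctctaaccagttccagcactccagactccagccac
Cxcl2: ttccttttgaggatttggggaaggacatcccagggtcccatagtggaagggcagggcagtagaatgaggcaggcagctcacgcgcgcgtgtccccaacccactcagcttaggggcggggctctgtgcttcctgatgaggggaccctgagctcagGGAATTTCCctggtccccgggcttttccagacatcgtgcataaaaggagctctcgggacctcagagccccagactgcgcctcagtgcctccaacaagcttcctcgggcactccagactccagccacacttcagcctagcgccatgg
These letters were searched on both strands (reverse complement GGAAATTCC). Of the 16 genes of this list with a promoter found, 5 had them in at least 1 promoter. They were in 0.317% of 32851 RefSeq mouse promoters of the same length, a share counted by promoter and not by gene. The 5 genes were Cxcl1, Cxcl2, Tnfaip3, Nfkbia and Icam1, of which the first 3 rose. Nfkbia (136 and 140 CPM, adjusted p = 0.466) and Icam1 (32.7 and 31.8 CPM, adjusted p = 0.708) did not pass the test. A match of letters is a description and not a measured site.

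Cxcl1, a neutrophil chemokine, measured 76.5, 74.6 and 73.3 CPM at passage 5, then 90.3, 94.8 and 97 CPM at passage 10 (log2 0.33 ± 0.043, adjusted p = 2.45e-11). Cxcl2 measured 47.8, 47.5 and 47.2 CPM and then 61.1, 64.6 and 62.8 CPM (log2 0.40 ± 0.05, adjusted p = 4.96e-12). Cxcl5, a further chemokine of this class, measured 3342, 3392 and 3411 CPM and then 3860, 3778 and 3780 CPM (log2 0.17 ± 0.014, adjusted p = 2.16e-24). All 3 chemokines had passage 10 libraries above all passage 5 libraries. Ccl20, which attracts CCR6-bearing lymphocytes and dendritic cells, went from 110, 106 and 115 CPM to 149, 140 and 144 CPM (log2 0.39 ± 0.037, adjusted p = 2.89e-19). Tnf, the cytokine that itself activates NF-kB, went from 69.7, 68.2 and 62.9 CPM to 89.6, 87.2 and 85.4 CPM (log2 0.38 ± 0.045, adjusted p = 2.04e-13). Within the pathway, Nfkb2 rose from 61.5 to 77.2 CPM, Relb, its partner in the non-canonical dimer, from 21 to 26.4 CPM, and Tnfaip3, an inhibitor of the pathway, from 198 to 225 CPM (log2 0.33, 0.33 and 0.18). The macrophage growth factor gene Csf1 rose from 17.1 to 23.8 CPM and Il1a from 105 to 127 CPM. Il33, an alarmin, and Cxcl16 fell; their levels are with the regenerative genes for Il33 and at 116 and 108 CPM for Cxcl16. With all 21 libraries in the fit, 8 of the 19 rose and 1 fell, and Cxcl5 lost its call.

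Secreted and oxidant defence genes moved both ways, with 6 of 13 higher and 4 lower (median log2 0.01). Duox2, the hydrogen peroxide-producing oxidase of mucosal surfaces, measured 2001, 2046 and 1986 CPM at passage 5, then 2497, 2561 and 2528 CPM at passage 10 (log2 0.33 ± 0.016, adjusted p = 8.25e-43), and its maturation factor Duoxa2 rose from 346 to 390 CPM. Nos2, the inducible nitric oxide synthase, went from 4.95, 5.64 and 4.94 CPM to 12.9, 11.7 and 14.4 CPM (log2 1.34 ± 0.11, adjusted p = 2.32e-22). Reg3g, an antibacterial lectin, went from 10.9, 11.1 and 11.2 CPM to 25.4, 23.9 and 27.9 CPM (log2 1.22 ± 0.093, adjusted p = 4.29e-24). The iron-scavenging proteins went opposite ways. Lcn2, the siderophore-binding lipocalin, measured 129, 125 and 127 CPM and then 184, 176 and 179 CPM (log2 0.50 ± 0.028, adjusted p = 1.21e-37). Ltf, lactoferrin (chromosome 9, 111019271 to 111042767 on GRCm38), measured 2197, 2117 and 2147 CPM and then 1318, 1314 and 1293 CPM (log2 -0.72 ± 0.015, adjusted p = 3.63e-106), and it was among the largest falls in CPM. Pigr, the polymeric immunoglobulin receptor, stood at 6793 and 6862 CPM (log2 0.01, adjusted p = 0.476), and Spink4 and Dmbt1 fell from 25.7 to 17.8 CPM and from 62 to 51.9 CPM. In the fit with all 21 libraries, 4 of the 13 rose and none fell.

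Most Wnt target genes were lower at passage 10. Wnt ligands free beta-catenin to act with TCF factors, and several of the genes they raise, Axin2, Rnf43, Znrf3 and Notum, dampen the pathway in return, while Lgr5 encodes a receptor for the R-spondin proteins that amplify it. Of 13 Wnt target genes tested, none rose and 12 fell (median log2 -0.38). Axin2, a scaffold of the beta-catenin destruction complex (chromosome 11, 108920349 to 108950783 on GRCm38), measured 27.5, 25.3 and 28.2 CPM at passage 5, then 14.9, 13.8 and 14.3 CPM at passage 10. It fell by 0.91 ± 0.092 on the log2 scale (adjusted p = 3.92e-17), and no passage 10 library came near a passage 5 library. Lgr5 measured 18, 22.3 and 19.4 CPM and then 13.8, 11.4 and 12 CPM (log2 -0.68 ± 0.085, adjusted p = 6.51e-12). Tcf7, which encodes a TCF factor, measured 11.9, 10.7 and 12.8 CPM and then 7.73, 7.83 and 7.39 CPM (log2 -0.63 ± 0.12, adjusted p = 1.26e-05). Both were lower in every library of passage 10.

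The ubiquitin ligase gene Rnf43 fell from 49.8 to 40.6 CPM (log2 -0.29 ± 0.058) and the transcription factor gene Sp5 from 26.7 to 20.7 CPM (log2 -0.37 ± 0.081), while Znrf3, the partner of Rnf43, was at 16.5 and 17.7 CPM and did not pass the test (log2 0.11, adjusted p = 0.462). Tnfrsf19 measured 4.61, 4.44 and 5.96 CPM and then 1.8, 2.22 and 3.85 CPM (log2 -0.90 ± 0.19, adjusted p = 3.96e-05). Notum, a secreted enzyme that inactivates Wnt ligands, was low at 0.882, 1.06 and 1.71 CPM and then 0.42, 0.587 and 0.158 CPM (log2 -1.68 ± 0.46, adjusted p = 0.00369). The fall of Notum rested on single libraries: its adjusted p was 0.0699 without the third library of passage 10 and 0.0740 without the third of passage 5. Ascl2, a transcription factor gene of intestinal stem cells, fell from 1.1 to 0.445 CPM (adjusted p = 0.0324) and lost its call in 4 of the 6 fits that left out 1 library. The growth genes Myc and Ccnd1 fell less, from 137 to 118 CPM and from 1063 to 930 CPM (log2 -0.21 and -0.19). The wider list of isthmus and stem cell markers, which shares Axin2, Lgr5, Sox9 and Tnfrsf19 with the Wnt list, moved both ways, with 4 of 15 higher and 7 lower and a summed level of 1465 to 1517 CPM at passage 5 and 1557 to 1567 CPM at passage 10. Lgr4, a receptor of the same family as Lgr5 that is expressed more widely, rose from 231 to 278 CPM (log2 0.27 ± 0.027, adjusted p = 2.55e-17). With all 21 libraries in the fit, 8 of the 13 Wnt genes fell and none rose. In that edgeR fit Lgr4 lost its call (adjusted p = 0.166), and of the 15 isthmus and stem markers 0 were higher and 4 lower. Axin2 and Notum share exonic positions with other annotated genes, so their counts may hold reads of those.

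Markers of mucous neck cells and of spasmolytic polypeptide-expressing metaplasia (SPEM), the state in which chief cells take on neck cell genes, were also lower: of 9 tested, none rose and 8 fell (median log2 -0.27). Gkn3, a gastrokine of neck cells, measured 281, 277 and 276 CPM at passage 5, then 165, 159 and 164 CPM at passage 10 (log2 -0.77 ± 0.032, adjusted p = 9.23e-59), the opposite direction to the pit cell gastrokines Gkn1 and Gkn2. Tff2, the spasmolytic polypeptide itself, measured 24.2, 23.5 and 27.2 CPM and then 18.9, 19.9 and 19.5 CPM (log2 -0.36 ± 0.065, adjusted p = 2.3e-06). Cftr, the chloride channel, measured 48.3, 43.2 and 46.1 CPM and then 32.2, 33.1 and 33.6 CPM (log2 -0.48 ± 0.065, adjusted p = 1.81e-10). None of these 3 genes had overlapping passages. Cd44, the hyaluronan receptor, fell from 255 to 221 CPM and Wfdc2 from 396 to 342 CPM; Aqp5 was at 8.26 and 7.21 CPM and did not pass the test (adjusted p = 0.261). Sox9, a transcription factor gene counted in both the Wnt and the neck list, measured 93.3, 86.2 and 96.1 CPM and then 71, 70.5 and 70.9 CPM (log2 -0.38 ± 0.047, adjusted p = 3.09e-12). Clu, given below with the regenerative genes, counts in this list as well, so the falls of the neck and regenerative lists are not independent. Of the 9 neck and SPEM markers, 2 fell in the fit with all 21 libraries.

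Genes of the regenerative state and of YAP signalling were lower at passage 10 as well. YAP and TAZ are co-activators that enter the nucleus when cells spread or tissue is damaged and act through TEAD factors on genes such as Ankrd1, Ccn1 and Ccn2. Of 14 genes tested, none rose and 10 fell (median log2 -0.23). The promoters of Ankrd1 and Ccn1 are shown because they hold GGAATG, a core of the TEAD motif, in capitals: 210 and 123 bases before the start of Ankrd1 and, as its reverse complement CATTCC, 103 bases before the start of Ccn1. They come from RefSeq on GRCm38.p6 and run 5′ to 3′ on the minus strand, at chr19:36119795-36120094 and chr3:145649936-145650235:
Ankrd1: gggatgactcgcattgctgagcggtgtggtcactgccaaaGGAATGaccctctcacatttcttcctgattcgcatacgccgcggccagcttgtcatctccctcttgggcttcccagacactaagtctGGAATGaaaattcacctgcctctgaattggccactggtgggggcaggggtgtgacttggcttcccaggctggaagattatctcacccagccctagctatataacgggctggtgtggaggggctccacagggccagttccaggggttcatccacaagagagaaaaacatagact
Ccn1: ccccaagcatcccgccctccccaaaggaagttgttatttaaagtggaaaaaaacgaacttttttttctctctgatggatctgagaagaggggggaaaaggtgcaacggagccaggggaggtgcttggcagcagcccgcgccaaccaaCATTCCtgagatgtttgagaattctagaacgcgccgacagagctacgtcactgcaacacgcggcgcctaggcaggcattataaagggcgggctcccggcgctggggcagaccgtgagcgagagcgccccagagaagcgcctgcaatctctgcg
Of the 9 genes of the list with a promoter found, 7 had these 6 letters on either strand in at least 1 promoter, and 4 of the 7 fell. The letters were in 14.7% of all 32851 promoters, a share counted by promoter and not by gene. Motifs for the Wnt, hypoxia and antioxidant lists were searched in the same way and are not shown.

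Ankrd1, a nuclear ankyrin repeat protein used as a YAP readout, measured 50.9, 56.6 and 54.8 CPM at passage 5, then 27.4, 24.9 and 24 CPM at passage 10 (log2 -1.09 ± 0.064, adjusted p = 2.95e-38). Ccn2, a matricellular growth factor, measured 166, 165 and 168 CPM and then 111, 107 and 107 CPM (log2 -0.62 ± 0.034, adjusted p = 4.6e-42). Its relative Ccn1 measured 58, 54 and 56.7 CPM and then 49, 46.1 and 46.5 CPM (log2 -0.25 ± 0.049, adjusted p = 1.19e-05). All 3 were lower in every library of passage 10, Ankrd1 the most. Amotl2 and Lats2, YAP targets that restrain the pathway, were at 62.8 and 57.7 CPM and at 11.4 and 11.2 CPM and did not pass the test (adjusted p = 0.0588 and 0.938).

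Ly6a, which encodes the stem cell antigen Sca-1, measured 794, 763 and 787 CPM at passage 5, then 439, 425 and 414 CPM at passage 10 (log2 -0.88 ± 0.032, adjusted p = 1.65e-15). Il33 (chromosome 19, 29925114 to 29960718 on GRCm38) measured 627, 636 and 636 CPM and then 364, 355 and 365 CPM (log2 -0.81 ± 0.022, adjusted p = 6.03e-86). Msln, mesothelin, measured 2443, 2438 and 2437 CPM and then 1788, 1797 and 1753 CPM (log2 -0.46 ± 0.015, adjusted p = 1.59e-72). These 3 genes fell with almost no spread within a passage. Clu, the secreted chaperone clusterin that marks revival stem cells of the intestine, measured 16502, 16377 and 16202 CPM and then 14191, 14375 and 14104 CPM (log2 -0.20 ± 0.011, adjusted p = 4.24e-40). Clu lost its call with all 21 libraries in the fit, where 7 of the 14 genes fell.

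**Figure D3:**
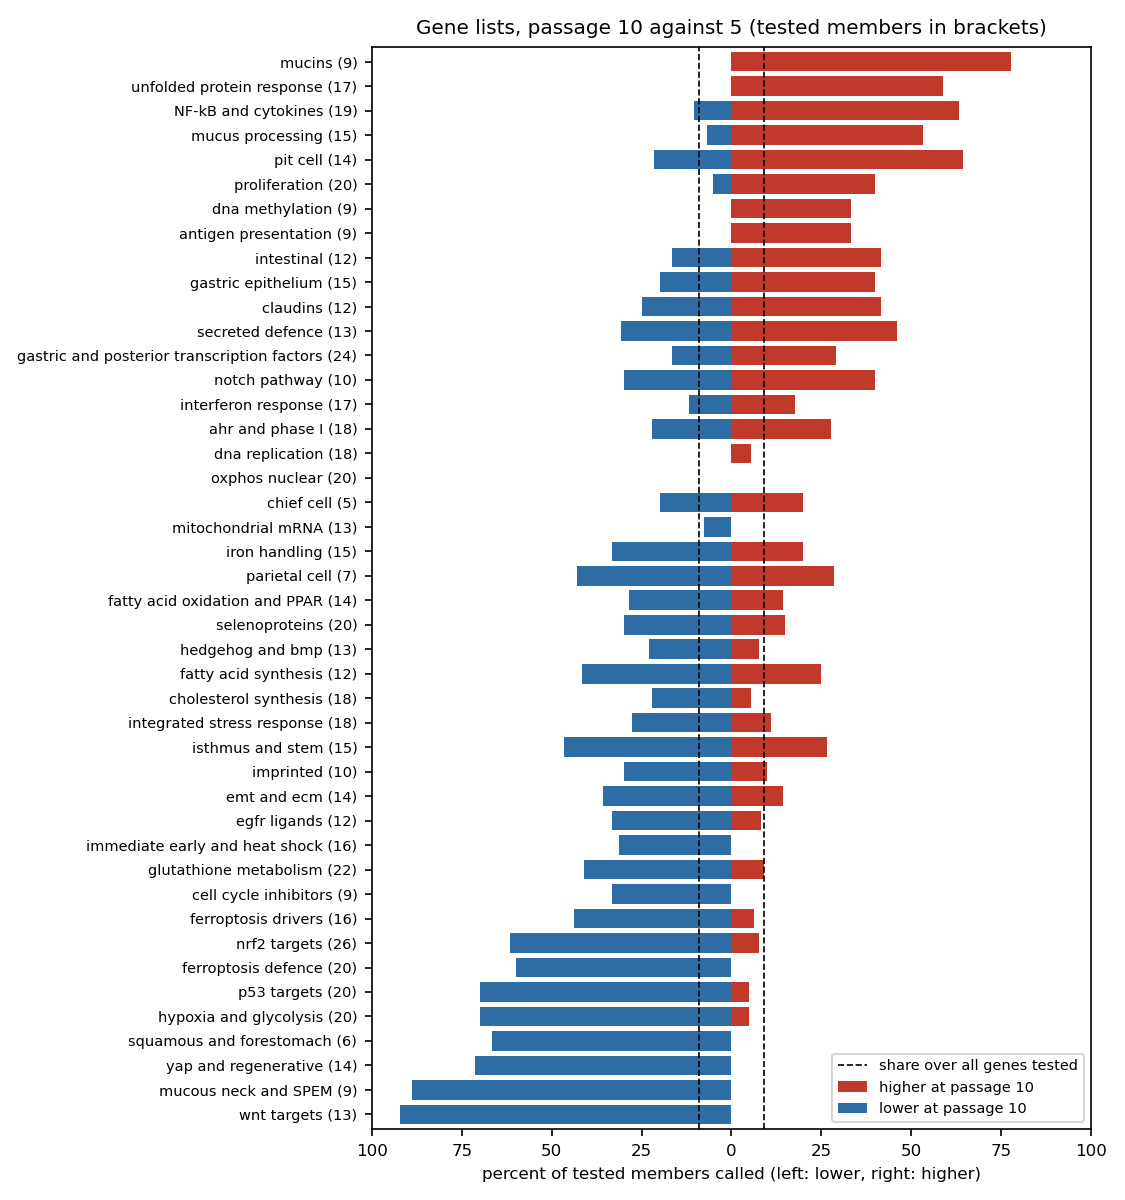
Bars give the percent of tested members of each gene list that were higher (right, red) or lower (left, blue) at passage 10, for lists with 5 or more tested members (number in brackets); dashed lines mark the shares over all genes tested, 9.16% and 9.14%. Mucin and pit cell lists stand at the higher end and Wnt and mucous neck lists at the lower end.

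Antioxidant genes were lower too. NRF2, encoded by Nfe2l2, is the transcription factor that answers oxidants and electrophiles by raising genes for glutathione, thioredoxin and quinone metabolism. Of 26 NRF2 target genes tested, 2 rose and 16 fell (median log2 -0.10). Slc7a11, the cystine importer that feeds glutathione synthesis, measured 620, 623 and 624 CPM at passage 5, then 446, 432 and 450 CPM at passage 10 (log2 -0.49 ± 0.02, adjusted p = 1.67e-57). Its partner chain Slc3a2 fell from 147 to 121 CPM, Gclm, the modifier subunit of glutamate-cysteine ligase, from 189 to 159 CPM, and Txnrd1, a thioredoxin reductase, from 676 to 573 CPM (log2 -0.27, -0.24 and -0.24). The heme oxygenase gene Hmox1 fell from 37.1 to 24.8 CPM (log2 -0.58 ± 0.069), and Nfe2l2 itself from 773 to 663 CPM (log2 -0.22 ± 0.018). Gstm1 and Cbr3 rose, from 214 to 255 CPM and from 117 to 136 CPM, and Nqo1 and Gclc did not pass the test (38.1 and 40.8 CPM, and 773 and 767 CPM). With all 21 libraries in the fit, 4 of the 26 fell and none rose, and Slc7a11 lost its call.

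Ferroptosis is cell death by lipid peroxidation, which Gpx4 holds back with glutathione. Of 20 genes that defend against it, none rose and 12 fell (median log2 -0.13) in the fit used here, and 5 of the 20 fell with all 21 libraries in it. Besides Slc7a11, Gpx4 and Txnrd1, the desaturase gene Scd1, which makes monounsaturated fatty acids that resist peroxidation, fell from 220 to 160 CPM (log2 -0.47 ± 0.03, adjusted p = 2.45e-34). The ferroptosis suppressor gene Aifm2 was at 8.59 and 8.48 CPM (adjusted p = 0.976). Of 16 genes that promote ferroptosis, 7 fell and 1 rose: Ncoa4, which delivers ferritin for breakdown, fell from 308 to 201 CPM (log2 -0.62 ± 0.028, adjusted p = 4.57e-53), and Sat1, a polyamine acetyltransferase gene, from 423 to 337 CPM. Acsl4, which loads membranes with polyunsaturated fatty acids, was at 269 and 261 CPM (adjusted p = 0.271).

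Glutathione-using enzymes had 2 higher and 9 lower of 22 (median log2 -0.13). Gpx2, the glutathione peroxidase of gut epithelium, measured 1281, 1235 and 1254 CPM at passage 5, then 821, 830 and 796 CPM at passage 10 (log2 -0.62 ± 0.018, adjusted p = 6.2e-84), a larger fitted fall than that of Gpx1 (93.5 to 78.9 CPM, log2 -0.25 ± 0.042) or of Gpx4. The microsomal transferase genes parted: Mgst2 fell from 52.7 to 35.9 CPM and Mgst3 rose from 83.7 to 108 CPM (log2 -0.55 ± 0.058 and 0.36 ± 0.041). The fit with all 21 libraries called 1 of the 22 higher and 5 lower.

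Hypoxia and glycolysis genes had 14 of 20 lower and 1 higher (median log2 -0.14). Among targets of the hypoxia-inducible factors, Egln3, an oxygen-sensing hydroxylase, fell from 188 to 139 CPM, Car9, a surface carbonic anhydrase, from 249 to 192 CPM, Vegfa from 146 to 113 CPM and Ddit4 from 99.9 to 71.5 CPM (log2 -0.43, -0.38, -0.38 and -0.48). The glycolytic genes Pgk1 and Ldha fell from 1376 to 1161 CPM and from 1683 to 1529 CPM, whereas the glucose transporter gene Slc2a1 stood at 175 and 176 CPM (adjusted p = 0.997) and Hk2 rose from 199 to 210 CPM. Over 20 nuclear genes of oxidative phosphorylation the log2 changes lay between -0.10 and 0.12, with a median of 0.00. Of 13 mitochondrial mRNAs 1 was called in this fit, mt-Co1, which fell from 21693 to 19801 CPM (log2 -0.13 ± 0.011). The fit with all 21 libraries called 7 of the 20 hypoxia and glycolysis genes lower.

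Targets of p53, the DNA damage-responsive tumour suppressor, had 14 of 20 lower and 1 higher (median log2 -0.17). Gdf15, a stress-induced secreted factor, fell from 13 to 7.5 CPM (log2 -0.79 ± 0.13), the pro-apoptotic gene Pmaip1 from 115 to 88.1 CPM (log2 -0.38 ± 0.04), the cyclin kinase inhibitor gene Cdkn1a from 132 to 112 CPM (log2 -0.24 ± 0.038) and Mdm2, the p53 ubiquitin ligase gene, from 201 to 177 CPM (log2 -0.18 ± 0.03). The senescence-linked Cdkn2a fell from 36 to 25.5 CPM (log2 -0.50 ± 0.075, adjusted p = 8.74e-09). Proliferation genes had 8 of 20 higher and 1 lower (median log2 0.10): Mki67 rose from 526 to 600 CPM and Top2a from 450 to 525 CPM (log2 0.19 ± 0.022 and 0.22 ± 0.019), Plk1, a mitotic kinase gene, from 75.6 to 87.9 CPM, and the lower one was Ccnd1. Of 18 DNA replication genes, 1 rose, Mcm6, from 179 to 190 CPM. With all 21 libraries in the fit, 3 of the 20 p53 targets fell and 1 of the 20 proliferation genes rose.

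Lists for other lineages moved both ways or lower. Of 11 chief cell markers 5 were tested: pepsinogen C (Pgc) fell from 30.2 to 21.9 CPM (log2 -0.46 ± 0.084, adjusted p = 2.5e-06) and Rab3d, a zymogen granule GTPase, rose from 206 to 240 CPM (log2 0.22 ± 0.03). Of 7 parietal cell markers tested, 2 rose and 3 fell (median log2 -0.11), among them Kcnq1, a potassium channel gene, from 112 to 76.7 CPM (log2 -0.54), and Car2, a carbonic anhydrase gene, from 856 to 936 CPM (log2 0.13). Atp4a, the parietal cell proton pump subunit, was at 0.853 and 1.9 CPM (log2 1.14 ± 0.31, adjusted p = 0.00304), while Atp4b, its partner subunit, was at 0 and 0.0599 CPM. Tuft cell genes fell in 3 of 4 tested, Ptgs1 from 5.84 to 2.87 CPM (log2 -1.02 ± 0.17, adjusted p = 4.18e-07), with Gnat3, Il25 and Gfi1b at 0 counts. Squamous and forestomach genes fell in 4 of 6: the keratin gene Krt4 went from 11 to 4.61 CPM (log2 -1.26 ± 0.14) and Krt7 from 2216 to 1838 CPM (log2 -0.27 ± 0.015), with the squamous regulator Trp63 at 0 counts. Of 12 intestinal genes 5 rose and 2 fell. Olfm4, a secreted glycoprotein of intestinal stem cells, rose from 23.4 to 35.3 CPM (log2 0.59 ± 0.066, adjusted p = 1.24e-14). Cdh17, an intestinal cadherin, rose from 0.321 to 1.12 CPM (log2 1.79 ± 0.52, adjusted p = 0.00583), a call that was lost without the third library of passage 10 (adjusted p = 0.0966) or of passage 5 (0.0501). In the fit with all 21 libraries, 1 parietal marker rose and 1 fell, 2 tuft and 1 squamous gene fell, and 4 intestinal genes rose and 1 fell.

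Among transcription factor genes of stomach and gut, 7 of 24 rose and 4 fell. Hnf4a rose from 270 to 317 CPM, Klf4 from 166 to 206 CPM and Gata4 from 77.1 to 92.2 CPM (log2 0.23, 0.31 and 0.26), Irx2 rose from 0.686 to 2.08 CPM (log2 1.56 ± 0.31), and Pdx1, a factor of antral stomach and duodenum, fell from 38.5 to 29.6 CPM (log2 -0.38 ± 0.072). Ihh, a hedgehog ligand of pit cells, rose from 7.86 to 13.2 CPM (log2 0.74 ± 0.12, adjusted p = 1.51e-07), the BMP response gene Id1 fell from 51.3 to 32.8 CPM (log2 -0.65 ± 0.064) and the BMP ligand gene Bmp8b from 7.2 to 3.37 CPM (log2 -1.10 ± 0.18). The alcohol and aldehyde dehydrogenase genes Adh7 and Aldh3a1 rose from 110 to 174 CPM and from 584 to 795 CPM (log2 0.66 ± 0.038 and 0.45 ± 0.019). Claudins, the pore and seal proteins of tight junctions, had 5 of 12 higher and 3 lower: Cldn4 fell from 48.3 to 30.3 CPM (log2 -0.67 ± 0.059) and Cldn2, which forms cation pores, from 287 to 204 CPM (log2 -0.49 ± 0.025), while Cldn18 rose (log2 0.12 ± 0.016). With all 21 libraries in the fit, 2 of the 12 claudins were lower and none higher, and Cldn18 lost its call, and of the 24 transcription factor genes 4 rose and 1 fell.

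Among named protein-coding genes of at least 1 CPM at either passage, the largest folds belonged to genes with few counts. Ugt1a7c, a glucuronosyltransferase gene that shares exons with its Ugt1a neighbours, had 3 counts over the passage 5 libraries and 60 over those of passage 10, a ratio per library total of 17.2 (95% exact interval 5.61 to 85.8, counting error only). Gbp5, a guanylate-binding protein gene, followed at 0.183 and 1.3 CPM (log2 2.77 ± 0.56), then Hdgfl3 at 0.275 and 1.59 CPM (log2 2.50 ± 0.5) and Tesc at 0.438 and 1.99 CPM (log2 2.17 ± 0.37). Scgb3a1, a small secreted protein of mucosal surfaces, measured 6.11, 5.57 and 5.62 CPM at passage 5, then 22.4, 25.2 and 18 CPM at passage 10 (log2 1.91 ± 0.14, adjusted p = 8.94e-11). Fhl1, a LIM domain protein gene, went from 3.87, 4.16 and 3.43 CPM to 10.7, 13.9 and 13.6 CPM (log2 1.73 ± 0.15, adjusted p = 8.87e-22). Genes were named by fold only if their passages were separate, so the lack of overlap for both was set by the choice.

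Rhox5, an X-linked homeobox gene of the germ line (chromosome X, 37804842 to 37808876 on GRCm38), measured 2.78, 4.3 and 2.19 CPM at passage 5, then 0.12, 0.13 and 0.317 CPM at passage 10 (log2 -3.93 ± 0.45, adjusted p = 5.85e-14). It rests on 10 counts at passage 10 in all. Cnfn, a cornified envelope protein gene (chromosome 7, 25367620 to 25369724 on GRCm38), measured 46.9, 50 and 51.1 CPM and then 13.7, 11.3 and 11.1 CPM (log2 -2.03 ± 0.09, adjusted p = 9.18e-53). Nid2, a basement membrane protein gene, measured 9.23, 9.45 and 9.94 CPM and then 2.52, 1.83 and 3.8 CPM (log2 -1.79), and Pla2r1 and Prelid2 fell from 6.24 to 1.63 CPM and from 9.62 to 2.51 CPM. All of these were named by the same fold rule, which required separate passages.

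Among genes of at least 10 CPM, a limit chosen after the values were seen, Lypd8, a secreted protein that keeps bacteria from the colonic epithelium, had a large rise, from 28.1, 24.1 and 24.2 CPM to 76.9, 70.1 and 72.8 CPM (log2 1.52 ± 0.07). The sulfotransferase genes Sult1b1 and Chst4 rose from 23.2 to 53.6 CPM and from 9.56 to 21.8 CPM (log2 1.21 ± 0.069 and 1.19 ± 0.1). On the falling side, Ptges, a prostaglandin E synthase gene, measured 35.3, 36.8 and 34.3 CPM and then 11.2, 10.4 and 11.7 CPM. The protocadherin gene Cdhr2, of the intermicrovillar links of the brush border, measured 210, 216 and 208 CPM and then 76.3, 79.6 and 73.5 CPM (log2 -1.47 ± 0.042). Cybrd1, a ferric reductase of the gut, measured 521, 512 and 508 CPM and then 212, 214 and 209 CPM (log2 -1.28 ± 0.027). Separate passages were also required for a gene to be named at this limit. Apoa1, the main apolipoprotein of high-density lipoprotein, was among the largest rises in CPM, from 764, 760 and 759 CPM to 1086, 1073 and 1063 CPM (log2 0.50 ± 0.018, adjusted p = 1.9e-66).

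Counts of several genes named here may hold reads of an annotated neighbour on the other strand: Tff1, Ccn2, Ccnd1, Cdkn1a, Car9, Krt7, Nid2, Pla2r1, Ptgs1, Bmp8b, Galnt7, Adh7, Plk1, Pdia3, Kcnq1 and Hdgfl3 share exonic positions with one, as mt-Co1 does, and Hsp90b1, Olfm4 and Top2a share positions with a gene on the same strand. Higher calls were more frequent in long genes. In the shortest quintile of tested genes by exonic length (45 to 1826 bases), 2.81% were higher and 7.51% lower. In the longest quintile (6991 to 123179 bases), 18.5% were higher and 8.67% lower. Medians over the quintiles ran from -0.02 to 0.03 on the log2 scale. A fit with a length offset, added after the data were seen, called 7 mucins higher and none lower, 9 pit cell genes higher and 3 lower, and 12 Wnt and 10 regenerative genes lower, the same counts as without it. Over all genes the offset moved the calls to 1205 higher and 1458 lower, from 1384 and 1381. Some other lists changed: 1 rather than 3 fatty acid synthesis genes and 9 rather than 10 unfolded protein response genes were higher.

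**Figure D4:**
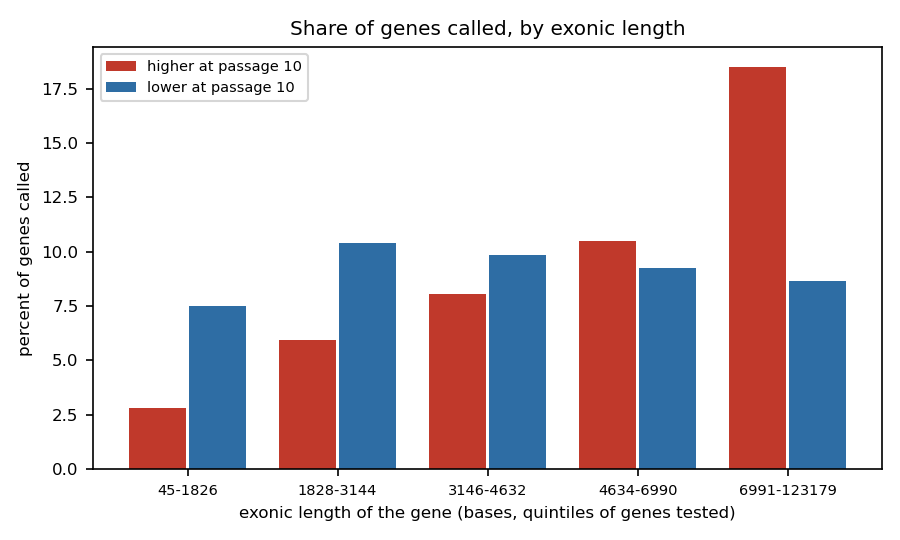
Percent of tested genes called higher (red) and lower (blue) at passage 10 in each quintile of exonic length, in bases. Higher calls go from 2.81% in the shortest quintile to 18.5% in the longest, and lower calls from 7.51% to 8.67%.

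The same passages were next compared in Gpx4 knockout organoids, in libraries that the wild-type comparison does not share. There 3327 genes (22.0%) were called, and the change between passages differed between genotypes for 3020 genes (20.0%) by the interaction term. Of the 2765 genes called in wild type, 596 were called the same way in the knockout, 584 the opposite way, and 1582 had a called interaction. The interaction term holds the wild-type change itself, so a wild-type call makes a called interaction more likely. The interaction counts here and for the lists below are therefore not independent of the wild-type calls. Of the 202 genes called by 2-fold or more, 47 were called the same way in the knockout, 28 the opposite way and 127 were not called there. Across the 15115 genes, Pearson's r between both log2 changes was 0.058, a description over genes, which are not independent replicates.

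Pit cell genes were higher at passage 10 in both genotypes, with medians of 0.29 in wild type and 0.34 in the knockout, but 11 of 14 had a called interaction. Gkn1, Gkn2 and Muc5ac rose more in the knockout (log2 1.13, 1.16 and 1.72, against 0.55, 0.58 and 0.78 in wild type), as did Clca1 (1.68 against 0.57). Psca rose in the knockout (log2 1.10) and not detectably in wild type, with a called interaction. Proliferation genes had medians of 0.10 and 0.18, with 5 of 20 interactions called, and Top2a changed by 0.22 and 0.23 (interaction adjusted p = 0.9).

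Of 9 mucins, 7 had a called interaction, with medians of 0.30 in wild type and -0.40 in the knockout. Muc5b rose in wild type and fell in the knockout from 136 to 8.53 CPM (log2 -3.99), and Muc13 fell there from 7.09 to 1.16 CPM (log2 -2.62). Cytokine and defence genes also parted: Cxcl1 changed by 0.33 in wild type and -0.65 in the knockout, Ccl20 by 0.39 and -0.22, and Nos2 by 1.34 and -1.36, each with a called interaction, as had 16 of the 19 genes of that list. Nfkb2 rose in both, by 0.33 and 0.38 (interaction adjusted p = 0.65). The unfolded protein response list had medians of 0.08 and -0.12, with 14 of 17 interactions called.

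Of the 13 Wnt genes, 1 was called in the knockout, Tnfrsf19, which rose there (log2 1.75). Axin2 changed by -0.08 and Lgr5 by -0.13 in the knockout, and the interaction was called for 9 of the 13 genes. Regenerative genes differed in 8 of 14: Ankrd1, Ccn2, Il33 and Msln rose in the knockout (log2 0.39, 0.60, 0.64 and 0.28), while Ly6a, Clu and Ccn1 fell in both genotypes (log2 -0.55, -0.22 and -0.32 in the knockout). Slc7a11 changed by -0.03 in the knockout against -0.49 in wild type, with a called interaction. Among the p53 targets 7 of 20 had a called interaction, and the knockout median was -0.10 against -0.17. For Bhlha15 the interaction was called as well: it went from 10.2 to 5.8 CPM in the knockout (log2 -0.81).

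**Figure D5:**
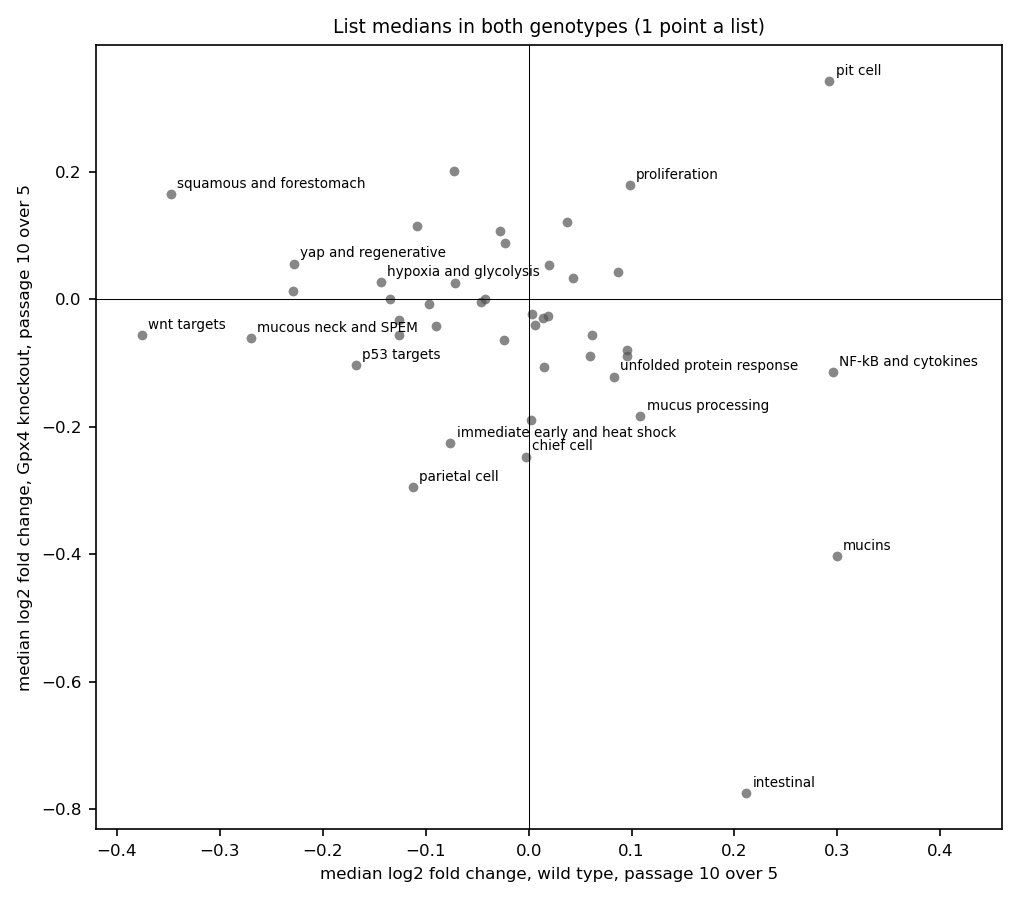
Each point is 1 gene list with 5 or more tested members, with its median log2 fold change of passage 10 over 5 in wild type (x axis) against that in Gpx4 knockout organoids (y axis). Pit cell genes lie high on both axes (0.29 and 0.34), while Wnt targets are low in wild type (-0.38) and near 0 in the knockout (-0.06).

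The 3 wild-type libraries of passage 15 are given as levels only, since they vary far more among themselves. Of the 14 pit cell markers, 13 had all 3 passage 15 libraries below all of passage 10, Gsta1 being the exception, and their summed level was 2995 to 4300 CPM. The share of such genes over all genes was not computed. Other lists also had many, among them interferon response (14 of 20) and cholesterol synthesis (13 of 18), while DNA replication had 0 of 18. Gkn2 measured 277, 185 and 227 CPM, Gkn1 249, 136 and 171 CPM and Muc5ac 26, 36.9 and 23.2 CPM, all below both earlier passages. Axin2 measured 10.7, 15.6 and 14.6 CPM and Ankrd1 27.8, 23.5 and 22.3 CPM, in the range of passage 10 or near it, whereas Lgr5 at 12.9, 23.4 and 19.2 CPM spanned both. Ccn2 at 261, 226 and 243 CPM lay above both passages, and Ly6a at 1045, 740 and 882 CPM above passage 10. Ltf at 445, 363 and 382 CPM, Cdhr2 at 10.4, 11.8 and 12.7 CPM, Cybrd1 at 59.5, 84.4 and 72.8 CPM and Cnfn at 1.08, 1.3 and 1.42 CPM were all lower than at passage 10. Cxcl1 at 41.7, 39.9 and 47.5 CPM and Nos2 at 1.65, 2.77 and 2.46 CPM were below passage 5, opposite to their rise from passage 5 to 10.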

How the data were processed

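The deposited table held 56691 genes with read counts and FPKM values for 21 organoid libraries in 7 groups of 3; the other 6 libraries of the series were not analysed here. Per the submitters' processing notes the tools named are cutadapt 1.9.1, HISAT2 2.2.1 and HTSeq 0.6.1 and the build is GRCm38.p5; the strand setting of the counting is not given in the sources used here. The FPKM values deposited by the authors equal count over length and library total within 0.005, and were used only in alternatives. The table's coordinates do not match GRCm38 for most genes, so coordinates printed are from GENCODE M21 (GRCm38).

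Raw counts as deposited by the authors were tested in edgeR 4.0.16 (R 4.3.3) with the quasi-likelihood F-test: genes kept by filterByExpr (minimum count 10, minimum total 15; 15115 genes, 99.91% of counts), TMM scaling, 1 mean per group and 18 libraries in the fit. The 3 wild-type libraries of passage 15 were left out of the spread. All other organoid libraries entered it, among them the Mist1- libraries of passage 5 and the knockout libraries of passage 15. The threshold was an adjusted p of 0.05 (Benjamini-Hochberg), and SE is the size of the log2 change over the square root of F. On simulated counts of this comparison with 15115 genes, 60% of genes changed 1.3-fold, 76% changed 2-fold and 90% changed 4-fold were recovered, and 5.19% of calls were false. Only 50 genes were changed at each fold, far fewer in all than the 2765 called in the data. Recovery under this adjustment depends on the share of changed genes, so these rates need not hold for the data. DESeq2 1.42.0, limma 3.58.1 on log2(FPKM + 1) and log2(FPKM + 0.1), other scalings and filters, left-out libraries and offsets for length and GC content (chosen after seeing the data) were tried as alternatives.

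The comparison and its 51 gene lists (583 distinct genes tested) were chosen with earlier results of these data known. Genes named by rule were Gpx4, Bhlha15, the 8 highest and 8 lowest folds among coding genes of at least 1 CPM with separate passages, the 8 largest rises and falls in CPM, and in each list the 4 smallest adjusted p and any member called by 2-fold; further list members and genes of at least 10 CPM were named after their values were seen. Some named genes are not reported here.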

Additional observations from a re-analysis of the deposited data

Results flagged for a closer look

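The change from passage 5 to 10 differed between wild type and knockout, by the interaction term of the edgeR fit with Benjamini-Hochberg adjustment, for 3020 genes. Differences below are the wild-type change minus the knockout change on the log2 scale, for genes named for their fold or CPM that had a called interaction and for list genes whose changes differed 2-fold or more. No group was large enough for a check of single libraries that stand apart, and no cause was tested.

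Among secretory and surface genes the difference was 4.81 for Muc5b, 3.98 for Muc13, 2.94 for Olfm4, 1.05 for Scgb3a1 and 0.95 for Apoa1, and it was negative for Clca1 (-1.11), Gkn1 (-0.58) and Gkn2 (-0.58). Defence genes gave 2.69 for Nos2, 0.44 for Duox2, 0.31 for Cxcl5 and -0.64 for Ltf. Regenerative and matrix genes gave -1.44 for Il33, -1.22 for Ccn2, -0.73 for Msln, -0.33 for Ly6a and -1.78 for Col4a2. Squamous and keratin genes gave -1.92 for Cnfn, -1.28 for Sprr1a, -1.24 for Krt4 and -0.42 for Krt7.

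Gastric lineage and signalling genes gave 1.44 for Atp4a, 1.37 for Ihh, 1.13 for Bhlha15, -1.31 for Pgc and -1.79 for the tuft cell gene Ptgs1. Redox, lipid and stress genes gave 1.28 for Hspa1a, 1.16 for Selenop, -0.24 for Gsto1, -0.40 for Gpx2 and -1.11 for Pparg. The imprinted genes Plagl1 and Snrpn gave 1.05 and -1.98, and the germ line gene Rhox5 gave -3.23. The remaining genes were Hdgfl3 (4.09), Ugt1a7c (2.72), Fhl1 (1.48), Rrbp1 (0.45), Prelid2 (-0.70), Pla2r1 (-1.42), Btn2a2 (-2.07) and Ly6m (-2.55). Hdgfl3, Ugt1a7c, Rhox5 and Ly6m rest on few counts in at least 1 group, and their fitted differences depend on the prior count.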

How the results depend on the processing

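The count of called genes moved most with the estimate of spread, and the count of 2-fold calls most with limma. With all 21 organoid libraries in it, 738 genes were called between passages in wild type (309 higher, 429 lower), 113 of them by 2-fold or more, 1150 in the knockout and 897 for the interaction, and 74 of 187 named genes that were called lost their call. Across the other alternatives the count of called genes ran from 2294 (DESeq2) to 2839, and 165 of the 187 kept their call in every one of them that tested the gene. The count of 2-fold calls fell to 59 with a mean FPKM of at least 1, and to 109 and 23 in limma on log2(FPKM + 0.1) and log2(FPKM + 1), which shrinks folds of low genes. Leaving out 1 library at a time gave 2295 to 2398 called genes (1175 to 1205 higher, 1120 to 1217 lower), 172 to 199 by 2-fold, 2809 to 3006 in the knockout and 2735 to 2932 for the interaction.

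Replicate numbers did not pair the libraries: same-numbered libraries of both passages had correlations of deviations of 0.017, 0.001 and 0.001 over 9262 genes. With the replicate block, 2839 genes were called (1401 higher, 1438 lower), 186 by 2-fold, 3105 in the knockout and 2929 for the interaction. At 14728099 to 19608956 counts a library, genes under 1 CPM rest on few reads, and their folds are the least certain.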

Other observations

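Notch pathway genes moved both ways, 4 of 10 higher and 3 lower: the receptor gene Notch1 rose from 35.4 to 41.8 CPM (log2 0.24) and the target gene Hes1 fell from 83.4 to 71 CPM (log2 -0.23). Of 12 fatty acid synthesis genes 3 rose, among them Fasn (378 to 433 CPM, log2 0.19), and 5 fell, among them Scd2 (4081 to 3745 CPM, log2 -0.12). Of 14 matrix and mesenchymal genes 2 rose and 5 fell; Fn1, fibronectin, rose from 0.85 to 2.75 CPM (log2 1.65 ± 0.29). Of 15 iron handling genes 3 rose and 5 fell, with the ceruloplasmin gene Cp going from 46.3 to 55 CPM (log2 0.24). Of 17 interferon response genes 3 rose and 2 fell, and 3 of 9 antigen presentation genes rose, among them H2-K1 (219 to 233 CPM, log2 0.09) and H2-D1 (359 to 384 CPM, log2 0.10). Of 9 DNA methylation genes 3 rose, with the maintenance methyltransferase gene Dnmt1 going from 140 to 157 CPM (log2 0.16) and its partner Uhrf1 from 85.3 to 97.2 CPM (log2 0.19); these changes had adjusted p = 1.01e-05 and 6.17e-05 in edgeR. Of 18 cholesterol synthesis genes 1 rose and 4 fell, the integrated stress response list had 2 higher and 5 lower genes of 18, and 5 of 16 immediate early and heat shock genes fell. Over all genes tested, 9.16% were higher and 9.14% lower, and several of these small counts lie near those shares. Selenop, the plasma selenium carrier, rose from 186 to 241 CPM (log2 0.37 ± 0.029) while 6 of 20 selenoprotein genes fell and 3 rose. Of these genes, Notch1, Hes1, Fasn, Scd2, H2-K1, H2-D1, Dnmt1 and Uhrf1 lost their calls with all 21 libraries in the fit. Notch1, Cp, Fn1 and Selenop share exonic positions with a gene on the other strand, and Scd2 with a gene on the same strand.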
